A study of Mus musculus with 6 samples.

Results

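The 8 genes described here are markers of bile duct cells and of liver progenitor cells: Krt19, Krt7, Krt23, Epcam, Cd24a, Prom1, Sox9 and Spp1. They were picked by symbol from the table of 30236 genes measured in mouse liver tumors, and the pick was made with earlier results of the same libraries known. All 8 were found, and all 8 lay among the 22677 genes that passed a filter on low values (a mean over the libraries above the lowest 25% of genes). Because of the way the genes were picked, their differences between genotypes are given as descriptions and not as tests.

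Bile ducts are lined by cholangiocytes, epithelial cells that carry keratins 7 and 19 and the adhesion protein EpCAM, which mature hepatocytes lack. In chronic injury, ductular cells and hepatocytes that take on duct features express Sox9, Spp1, Prom1 and Cd24a, and many liver tumors switch on part of the same set. A marker of this kind can therefore come from duct cells lying in or next to a tumor or from the tumor cells themselves, and bulk RNA does not separate these sources. Fewer cells of a type and less RNA per cell cannot be told apart in it either.

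The libraries held RNA of 3 WT tumors and 3 Top1mt-KO tumors, from male littermates of the C57BL/6 strain. The knockout removes Top1mt, which encodes the mitochondrial type IB topoisomerase, from every cell of the animal and not from the liver alone. All mice of both genotypes received the carcinogen diethylnitrosamine on postnatal day 14 and then carbon tetrachloride, a hepatotoxin, for 14 weeks from 8 weeks of age, and tumors were taken at 22 weeks. The study matched the tumors for size, and untreated liver was not analysed here, so a marker's level in these tumors has no normal liver beside it. Values are the authors' log2 expression values, made with a transform that is not named and that looks like a regularized log, which would understate differences of low genes, and the sequencing depth behind them is unknown. They are not scaled by gene length, so a level is compared only between libraries, never between genes.

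The targeted gene went against 1 label. Its log2 level was 7.71 in WT 1, 5.99 in the library labelled WT 2 and 8.01 in WT 3, against 5.58, 6.41 and 6.32 in Top1mt-KO 1, 2 and 3. Hence the library labelled WT 2 lay among the KO libraries, each direction given here rests on the labels, and WT 2 stands in the text for the library so labelled. The library labelled Top1mt-KO 1 stood apart as well: Gm42418, a transcript model that overlaps a ribosomal RNA repeat, took 17.7% of the summed linear values there and 0.020% to 0.387% in the other libraries. The hepatocyte markers were present in every library, with Alb, the albumin gene, at 20.3 to 21.1.

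RefSeq promoter windows on GRCm38.p6 were at hand for 5 of the 8 genes (Krt7, Krt23, Epcam, Prom1 and Spp1), 7 windows in all. Shown are 3 stretches that precede the annotated start of a gene and hold no annotated exon, because Krt23 and Spp1 were high in the same libraries and Epcam shared its pattern with the tight junction gene Cldn4. An exon-free stretch of Prom1 lies before a start inside that gene and is not shown. Each stretch runs 5′ to 3′ toward the start of its gene. Capitals mark the TATA-like letters ATAAAA and the E-box letters CACCTG or, where the match is on the opposite strand, CAGGTG.

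Krt23, chr11:99493138-99493370, - strand: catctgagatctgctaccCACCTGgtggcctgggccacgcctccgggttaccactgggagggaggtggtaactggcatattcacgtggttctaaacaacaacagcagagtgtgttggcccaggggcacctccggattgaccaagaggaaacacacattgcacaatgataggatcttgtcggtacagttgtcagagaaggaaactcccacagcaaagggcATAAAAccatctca

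Spp1, chr5:104434861-104435110, + strand: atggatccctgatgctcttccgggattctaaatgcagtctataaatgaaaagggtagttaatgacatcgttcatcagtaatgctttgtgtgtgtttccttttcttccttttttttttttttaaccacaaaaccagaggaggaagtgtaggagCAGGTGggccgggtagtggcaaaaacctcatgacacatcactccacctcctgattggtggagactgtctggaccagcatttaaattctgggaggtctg

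Epcam, chr17:87635729-87635978, + strand: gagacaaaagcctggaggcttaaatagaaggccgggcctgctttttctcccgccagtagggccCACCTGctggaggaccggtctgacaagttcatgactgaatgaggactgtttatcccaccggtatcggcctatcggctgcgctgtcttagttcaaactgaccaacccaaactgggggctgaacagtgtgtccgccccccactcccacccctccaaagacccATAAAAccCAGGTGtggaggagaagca

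The E-box CACCTG, read by repressors of the Snail and Zeb families among other factors, was found on either strand within the 250 bases before the start in all 5 genes and in 5 of their 7 windows, where 17.2% of 32851 RefSeq windows held it. Epcam had 2 of these matches, at bases -187 to -182 and -19 to -14 before the start, and 2.06% of windows had more than 1. The TATA-like letters ATAAAA were found in 4 of the 5 genes and in 4 of their 7 windows, where 17% of windows held them. They lay at -27 to -22 in Epcam and -31 to -26 in Krt23. In Spp1 they lay only in the window before a start inside the gene, which is not shown. The AP-1 letters TGANTCA occurred in both Prom1 windows and in none of the other genes' windows, where 6.75% of windows held them. The TATA box TATAAA (12.4% of windows) was found in Spp1 only, at -211 to -206, and the RBPJ letters TGGGAA (21.6%) in Prom1 only. The SOX letters AACAAT (9.42%) and the TEAD letters GGAATG (12.6%) were found in 0 of the 5 genes. The motifs were chosen after the expression values were seen, and TATAAA and ATAAAA can overlap where a further A follows, so a match is no more than a run of letters.

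Krt19, on chromosome 11 from 100140810 to 100145926 (RefSeq, GRCm38.p6), encodes the keratin most used to mark cholangiocytes. Its log2 values were 6.11, 4.75 and 6.93 in WT 1, 2 and 3 and 2.86, 4.38 and 2.502 in Top1mt-KO 1, 2 and 3. All 3 KO libraries lay below all 3 WT libraries, and the gap between the nearest libraries, WT 2 and Top1mt-KO 2, was 0.37. The WT mean was 5.93 ± 1.10 (SD, n = 3) and the KO mean 3.25 ± 0.996 (SD, n = 3). The log2 difference, KO minus WT here and for each gene that follows, was -2.68 (standard error 0.69), the largest among the 8 genes in the fit of all 6 libraries. Leaving out each library in turn gave -3.27 to -2.18.

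Krt7, on chromosome 15 from 101412403 to 101427806, encodes the type II keratin that pairs with keratin 19 in duct cells. It stood at 6.23, 5.35 and 6.04 in the WT libraries and at 2.57, 5.42 and 3.06 in the KO libraries. Top1mt-KO 2 lay 0.07 above WT 2, so the groups overlapped by that 1 library, while the other 2 KO libraries lay more than 2 units below every WT library. The log2 difference was -2.20 with a standard error of 0.73. It ran from -3.06 without Top1mt-KO 2 to -1.64 without Top1mt-KO 1.

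Krt23, on chromosome 11 from 99477973 to 99493120, encodes a type I keratin that is scarce in normal liver and is induced in injured and steatotic liver and in tumors. The WT libraries had 8.22, 7.08 and 6.32 and the KO libraries 5.52, 4.86 and 7.39. The libraries interleaved, with Top1mt-KO 3 above WT 2 and WT 3. The log2 difference was -1.28 with a standard error of 0.70, and it ran from -2.02 without Top1mt-KO 3 to -0.75 without Top1mt-KO 2.

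Epcam, on chromosome 17 from 87635979 to 87651127, encodes the homophilic adhesion protein of duct cells and of liver progenitors. It stood at 5.42, 5.22 and 6.97 in the WT tumors and at 3.88, 4.95 and 5.22 in the KO tumors. The groups did not overlap, but WT 2 exceeded Top1mt-KO 3 by less than 0.01, so they touched. The log2 difference was -1.19 with a standard error of 0.56. WT 3 alone set much of it, since without that library it was -0.64.

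Cd24a, on chromosome 10 from 43579169 to 43584265, encodes a small glycoprotein of the surface of progenitor cells, which B cells and granulocytes carry as well. Its values were 7.45, 6.67 and 6.81 in WT and 5.99, 6.56 and 6.34 in KO. The 3 KO libraries lay below the 3 WT libraries by at least 0.11, and the log2 difference was -0.68 with a standard error of 0.28. It was -0.44 without WT 1 and -0.83 without WT 2.

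Prom1, on chromosome 5 from 43993621 to 44102047, encodes prominin-1 (CD133), a membrane protein of microvilli and a marker of progenitor cells and of liver tumor cells. It stood at 9.56, 9.79 and 9.70 in the WT libraries, the tightest group of the 8 genes (SD 0.12), and at 10.44, 7.46 and 7.48 in the KO libraries. Top1mt-KO 1 was the highest of all 6 libraries, and the other 2 KO libraries lay more than 2 units below every WT library. The log2 difference was -1.22 with a standard error of 0.72. Without Top1mt-KO 1 it was -2.21, with a standard error of 0.14 and an adjusted p of 0.041 from limma, where 1 of 22677 genes, Prom1 itself, was called (0.00441%). Without both that library and WT 2 it was -2.16, with an adjusted p of 0.381 from limma and 0% of genes called. Top1mt-KO 1 is the library in which Gm42418 stood apart, at a log2 value of 22.0, with 11.7 to 15.8 in the others. Whether the RNA of that library bears on its Prom1 level was not tested.

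Sox9, on chromosome 11 from 112782210 to 112787757, encodes the transcription factor that specifies bile ducts in the embryo and is turned on in hepatocytes near injured ducts. Its values were 6.55, 6.15 and 7.53 in WT and 7.59, 6.31 and 6.77 in KO. The groups overlapped through nearly their whole range. The log2 difference was 0.15 (standard error 0.44), and its sign turned to -0.15 without WT 2, to -0.21 without Top1mt-KO 1 and to -0.50 without both. Its highest library was again Top1mt-KO 1, the one with the outlying Gm42418 value, whose part in the Sox9 level was not tested.

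Spp1, on chromosome 5 from 104435111 to 104441053, encodes osteopontin, a secreted ligand of integrins and of CD44 that duct cells, injured hepatocytes and macrophages make. It stood at 12.56, 12.10 and 11.32 in WT and at 11.96, 11.62 and 12.54 in KO. Each genotype held libraries near both ends of the range, and the log2 difference was 0.05 with a standard error of 0.35. It ran from -0.29 without WT 3 to 0.33 without WT 1, so its sign depends on the library left out.

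**Figure D1:**
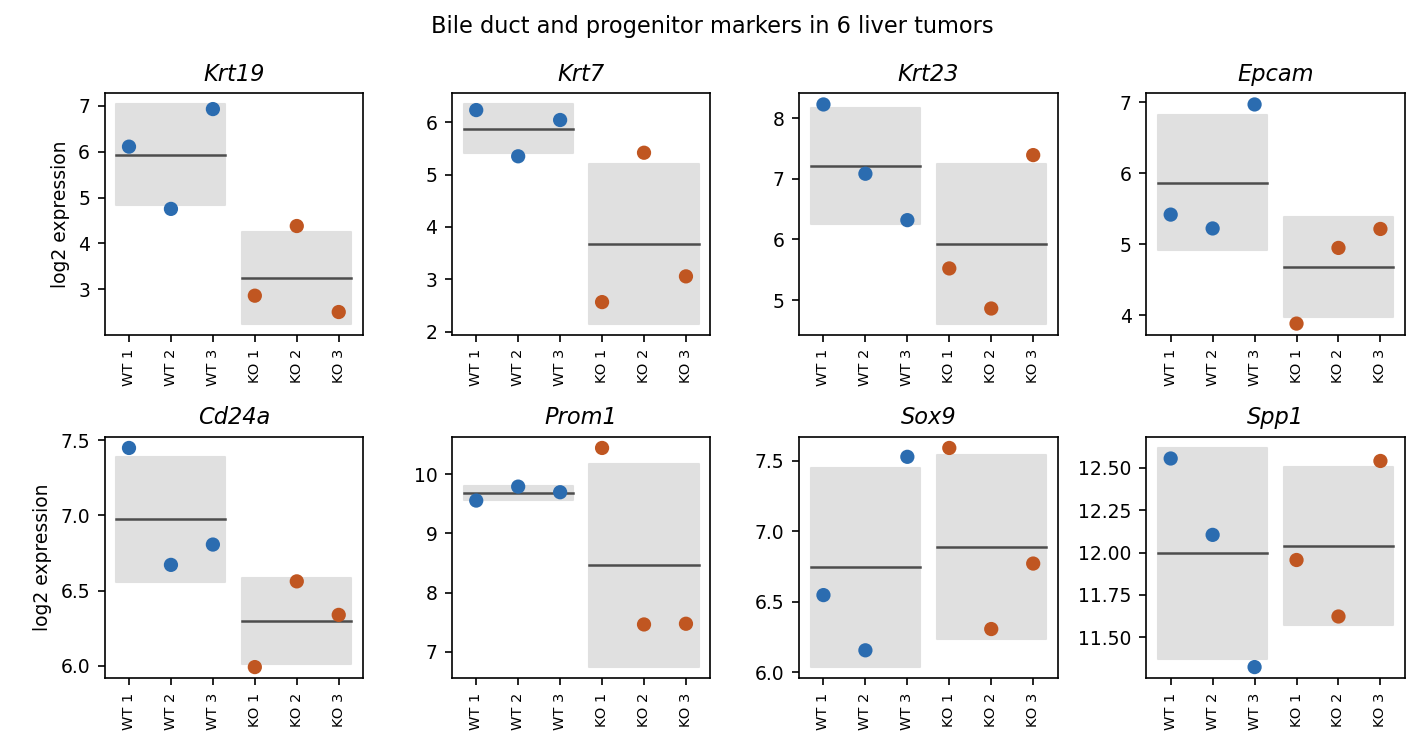
Log2 expression (vertical axis, a separate scale for each gene) of the 8 markers in each library (horizontal axis; blue, WT; orange, Top1mt-KO), with lines for group means and grey bands for 1 SD (n = 3). Krt19 shows 3 KO libraries below 3 WT libraries, Prom1 a tight WT group with Top1mt-KO 1 above it at 10.44, and Sox9 and Spp1 full overlap.

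Read together, 6 of the 8 genes had a lower mean in KO, where 52.3% of all genes tested did, and 5 had a mean lower by at least 1 on the log2 scale, where 2.9% did. The WT and KO libraries did not overlap in 3 of them (Krt19, Epcam and Cd24a; 8.28% of all genes), each lower in KO (4.33% of all genes) and 0 higher (3.95% of all genes). By limma 0 of the 8 had an adjusted p under 0.05, and 0% of all genes did. Without adjustment, 3 of the 8 (Krt19, Krt7 and Cd24a) and 4.34% of all genes had a limma p under 0.05, and the 3 were lower in KO, as were 2.56% of all genes. The smallest adjusted p among the 8 was 0.987, for Krt19. The pick of the genes used this same comparison, so these counts are no evidence about the genes. The median log2 difference was -1.20 over the 8 genes (-0.78 without Top1mt-KO 2) and -0.02 over all genes tested.

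**Figure D2:**
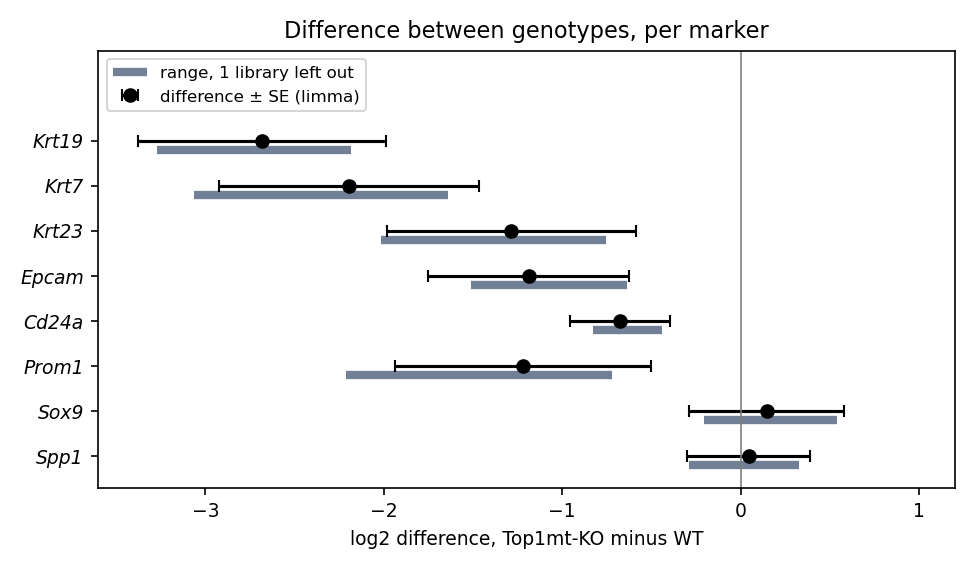
Log2 difference, Top1mt-KO minus WT (horizontal axis), for each marker (vertical axis), as points with the standard error from limma, above grey bars that span the values with 1 library left out in turn. Krt19 at -2.68 and Krt7 at -2.20 lie farthest from 0, and the bars of Sox9 and Spp1 cross 0.

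The 8 genes did not vary as 1 block. Krt19, Krt7, Epcam and Cd24a had positive correlations with each other, and Krt23 with Spp1 and, less closely, with Cd24a. The 4 did not share their extremes: the highest library was WT 3 for Krt19 and Epcam and WT 1 for Krt7 and Cd24a, and Top1mt-KO 3 was the lowest library for Krt19 but the highest KO library for Epcam. Correlations are given over the 6 libraries, which share their genotype groups, so each is given again after the mean of each genotype was removed (r within genotype). They describe these libraries only. Of the 28 pairs, 19 had a positive Pearson's r, and 12 stayed positive within genotype.

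Among Krt19, Krt7, Epcam and Cd24a the 6 pairs had an r of 0.55 to 0.92, and all 6 were positive within genotype (0.11 to 0.78). Krt19 and Krt7, partners in the duct cell skeleton, were the closest pair, with r = 0.92 (Spearman's rho 0.83, 0.78 within genotype, 0.94 without the 2 libraries farthest from the median of Krt19). Leaving out any 1 library kept their r between 0.88 and 0.95. Krt7 and Cd24a followed with r = 0.86 (rho 0.94, 0.67 within genotype). Epcam and Cd24a were the loosest pair, with r = 0.55 and 0.11 within genotype, an r of 0.19 without Top1mt-KO 1 and an r of -0.26 over the 3 WT libraries alone. Krt19 and Epcam, with r = 0.78 (0.57 within genotype), had 0.15 over the 3 KO libraries. WT 2 was the lowest WT library in all 4 genes, and Top1mt-KO 2 the highest KO library in Krt19, Krt7 and Cd24a.

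Krt23 and Spp1, a keratin and a secreted protein, had r = 0.74 (rho 0.83). Within genotype their r was 0.94, the highest of the 28 pairs. In WT both were highest in WT 1 and lowest in WT 3, and in KO both were highest in Top1mt-KO 3 and lowest in Top1mt-KO 2. With Krt19 neither was close: the r of Krt23 was 0.23 and that of Spp1 -0.39. With Cd24a, however, the r of Krt23 was 0.62 (0.35 within genotype, 0.19 without WT 1). That is above the 0.55 of Epcam and Cd24a, so the markers did not split cleanly. Without the 2 libraries farthest from the median of Krt23 the r of Krt23 and Spp1 was 0.57, so part of it rests on WT 1 and Top1mt-KO 2.

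Prom1 and Sox9 had r = 0.46 (rho 0.37) and 0.62 within genotype. Top1mt-KO 1 was the highest and Top1mt-KO 2 the lowest KO library in both, and without Top1mt-KO 1 the r was 0.20. Over the 12 pairs of Krt19, Krt7, Epcam or Cd24a with Prom1, Sox9 or Spp1, r ran from -0.39 to 0.32 with a median of -0.01. Prom1 and Krt7 had r = 0.06, which became 0.69 without Top1mt-KO 1, the library that was the lowest for Krt7 and the highest for Prom1.

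**Figure D3:**
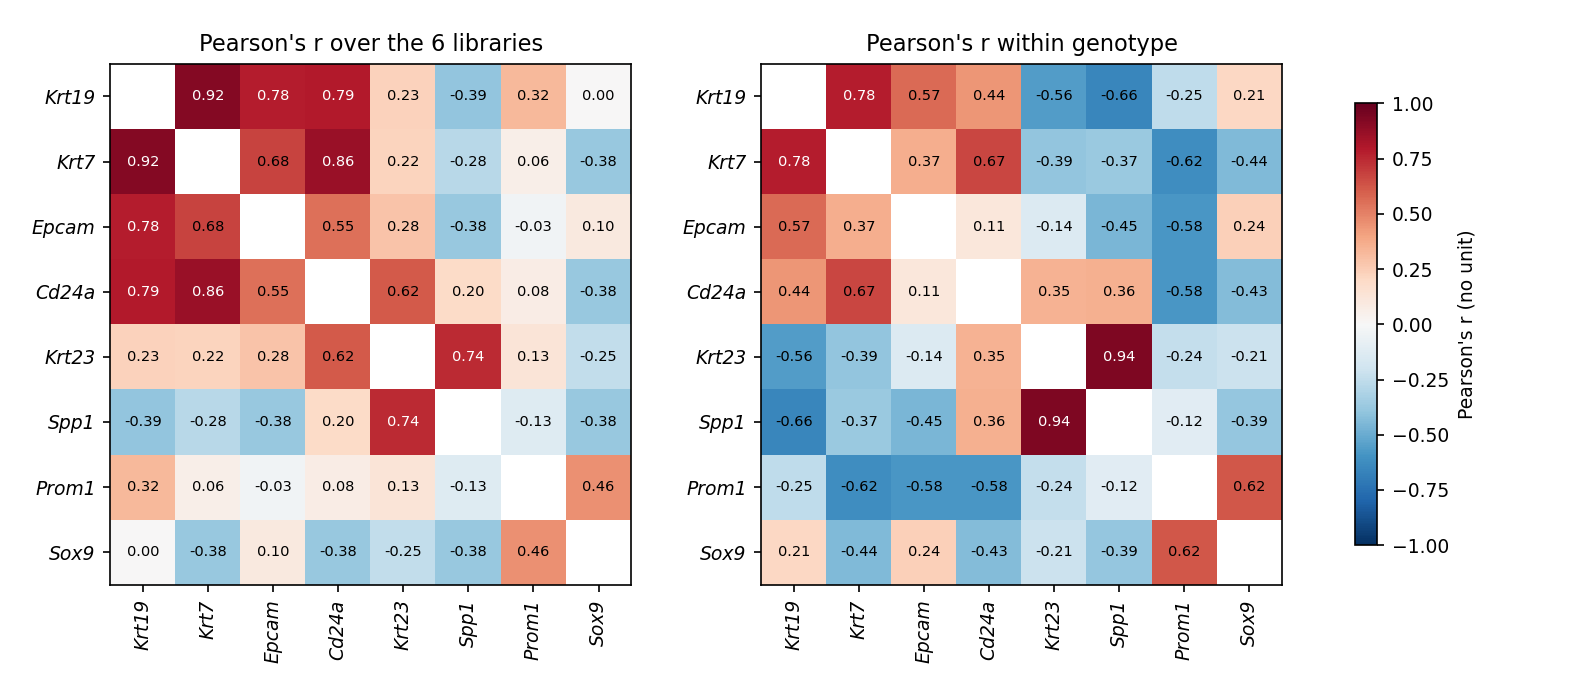
Pearson's r (colour and printed value, no unit) between each pair of the 8 markers, over the 6 libraries on the left and within genotype (each genotype's mean removed) on the right. Krt19, Krt7, Epcam and Cd24a form a positive square in both panels, and Krt23 with Spp1 reaches 0.94 within genotype.

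The level of Top1mt itself varied with Krt19, Krt7, Epcam and Cd24a. Its r was 0.86 with Krt19 (0.78 within genotype), 0.85 with Epcam (0.73), 0.79 with Cd24a (0.61) and 0.75 with Krt7 (0.52). With Krt23 it was 0.39 (0.04 within genotype), and with Prom1, Sox9 and Spp1 it was 0.05, 0.14 and -0.19. WT 2, the library whose Top1mt level went against its label, held the lowest WT value of Krt19, Krt7, Epcam and Cd24a, and also of Sox9. Without WT 2 the log2 difference of Krt19 was -3.27 and that of Epcam -1.51.

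Other genes of cholangiocytes were read from a list of 16: transporters, channels, cilium genes, claudins and transcription factors. By limma 0 of the 16 passed an adjusted p of 0.05, 13 had a lower and 3 a higher mean in KO, and the median log2 difference was -0.43, beside -0.02 over all genes tested. Without WT 3 that median was -0.18 and 11 means were lower. Among the largest differences were those of Tspan8, a tetraspanin (-1.91, SE 1.02), Cldn4, a tight junction claudin (-1.31, SE 0.74), and Ehf, an epithelial ETS factor (-1.25, SE 0.57). The summed level of the 16 genes was 12.38 to 12.56 in WT and 11.97 to 12.51 in KO, and Anxa4 gave the largest share of it, 32.6%.

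Ehf followed Krt7 (r = 0.96, 0.93 within genotype) and Krt19 (r = 0.89, 0.82 within genotype), and so did Bicc1, an RNA-binding protein gene of polycystic kidney disease, with r = 0.90 and 0.85. A gene of another cell type ranked between them: Lrat, of the stellate cell list, had r = 0.93 with Krt7 (0.83 within genotype) and 0.86 with Krt19 (0.65 within genotype). Cldn4 followed Epcam with r = 0.99 (0.99 within genotype), the closest match among all genes compared. Its values were 2.003, 1.68 and 4.08 in the WT and 0.34, 1.44 and 2.05 in the KO tumors. WT 3 was the highest and Top1mt-KO 1 the lowest library in both genes. Without WT 3 the r of Epcam and Cldn4 was 0.98. EpCAM binds claudin-7 in epithelial cells and is cut by matriptase, which the inhibitors Spint1 and Spint2 hold in check. Cldn7 had r = 0.85 with Epcam (0.98 within genotype) and Spint1 r = 0.91 (0.97 within genotype), but without WT 3 and Top1mt-KO 1 these were -0.56 and -0.04, so both relations rest on those libraries, while that of Cldn4 was 0.82. Of these 3 partners 0 passed the test by limma, and all 3 had a lower mean in KO: Spint1 by -0.38 (SE 0.54), Cldn7 by -0.26 (SE 0.60) and Spint2 by -0.06 (SE 0.12). Their median, -0.26, was -0.02 without WT 3 and -0.03 without Top1mt-KO 1, each with 1 higher mean, and -0.56 without WT 2.

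Keratins beyond the 3 markers were looked at after their values were seen. The table lists 48 genes named Krt and a number, 16 of which passed the filter on low values. Of the 13 that are not among the 8 markers, 10 had a lower mean in KO (11 after quantile normalization, under which Krt18 turned negative), 0 passed an adjusted p of 0.05 by limma and 5 lay lower by at least 1. Krt20, the neighbour of Krt23 on chromosome 11 and a keratin of intestine and urothelium, had 6.74, 4.18 and 5.46 in WT and 4.77, 2.91 and 2.04 in KO (-2.22, SE 0.85). Krt5 and Krt14, the pair of basal epithelial cells, had log2 differences of -1.79 (SE 0.73) and -1.44 (SE 0.40), and the WT and KO libraries of Krt14 did not overlap, at values between -1.31 and 0.94, close to the floor of the table. Krt80, the neighbour of Krt7 on chromosome 15, had -0.95 (SE 0.54). Krt8 and Krt18, the pair that hepatocytes and duct cells share, had log2 differences of -0.16 (SE 0.24) and 0.03 (SE 0.20), the latter -0.03 after quantile normalization. Krt8, Krt18, Krt20 and Krt80 had been set down as a list of simple epithelial keratins: 3 had a lower and 1 a higher mean in KO, 0 passed the test, and the median was -0.55, with 2 lower and 2 higher without WT 3 and a median of -0.33 without Top1mt-KO 3. Krt83, Krt86 and Krt87, hair keratins of near-identical sequence whose reads can be assigned to each other, lay within 0.14 of no difference.

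**Figure D4:**
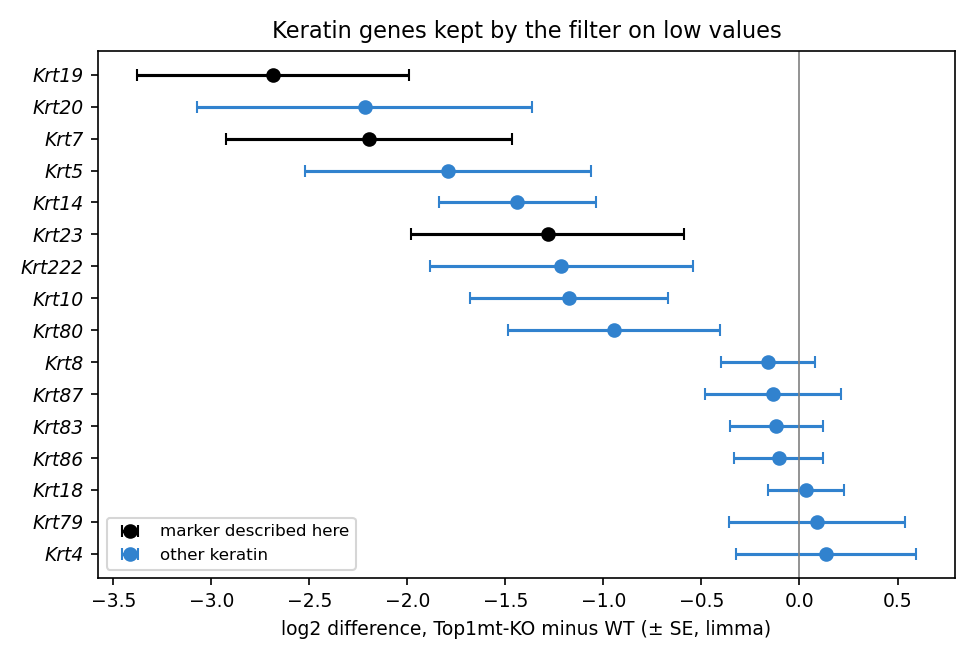
Log2 difference, Top1mt-KO minus WT (horizontal axis, with the standard error from limma), of the 16 keratin genes that passed the filter (vertical axis; black, Krt19, Krt7 and Krt23; blue, other keratins). Krt19, Krt20, Krt7 and Krt5 lie between -2.68 and -1.79, while Krt8 at -0.16 and Krt18 at 0.03 (-0.03 after quantile normalization) lie near 0.

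Keratins 7 and 19 are not particular to duct cells: the mesothelium that covers the liver carries them too. The 4 mesothelium markers had a summed level of 5.41 to 8.40 in WT and 4.12 to 6.64 in KO, a log2 difference of -1.76. All 4 had a lower mean in KO (3 without WT 1 or without Top1mt-KO 1), with a median of -2.12, and 0 of 4 passed the test by limma. None was absent from the table: Msln stood at 2.81 to 6.98 over the libraries, Upk3b at 2.83 to 6.72, Upk1b at 0.51 to 5.10 and Wt1 at 0.77 to 6.18. The summed level had r = 0.84 with Cd24a (0.73 within genotype), 0.75 with Krt7 (0.55) and 0.50 with Krt19 (-0.02). Without the 2 libraries farthest from the median of the marker these were 0.22, 0.05 and 0.97. WT 3 was where Krt19 and the mesothelium parted, with Krt19 at its highest, 6.93, and Msln at 4.06 and Wt1 at 1.94, their lowest WT values. The part of mesothelial cells in the Krt7 and Krt19 levels was not tested.

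Markers of other cells varied with single members of the 8 as well. The 4 neutrophil markers had a summed level of 7.90 to 9.61 in WT and 7.40 to 8.02 in KO, with all 4 means lower in KO and a median of -1.07, which was -0.54 without WT 3 and -1.64 without WT 1. Their r with Epcam was 0.88, and 0.44 without WT 3 and Top1mt-KO 1. The 6 hepatocyte markers had a summed level of 20.6 to 21.3 in WT and 20.8 to 21.4 in KO, with 3 lower and 3 higher means in KO (5 lower after quantile normalization) and a median of -0.03, which ran from -0.29 without Top1mt-KO 1 to 0.34 without Top1mt-KO 2. The r of that sum was -0.76 with Krt19, -0.73 with Krt7 and -0.82 with Epcam, and the last was 0.16 without WT 3 and Top1mt-KO 1. Alb gave 81.6% of the sum, so its r does not speak for the 6 genes singly. Cyp2e1, of the same list, had r = 0.86 with Cd24a (0.10 without WT 1 and Top1mt-KO 1). With Krt23 its r was 0.86 (0.81 without WT 1 and Top1mt-KO 2). The sum had -0.60 with Cd24a and -0.0003 with Krt23. All 6 stellate cell markers had a lower mean in KO, with a median log2 difference of -0.48, but without Top1mt-KO 1 it was 3 of 6 and -0.12, and the median was -0.28 without WT 1 and -0.77 without Top1mt-KO 2. Dcn, the decorin gene among them, had r = 0.93 with Cd24a, which rests on WT 1 and Top1mt-KO 1. The 4 endothelial markers all had a higher mean in KO, with a median of 0.16, but without Top1mt-KO 3 it was 3 of 4 and 0.11. The macrophage, B cell and T cell lists each had as many higher as lower means, with medians of 0.01, 0.11 and -0.12, but these splits depended on single libraries. All 4 B cell means were higher after quantile normalization, without Top1mt-KO 1 and without Top1mt-KO 2, and all 4 were lower without Top1mt-KO 3, with a median of -0.31. Of the 8 macrophage means 7 were higher without Top1mt-KO 1, 6 were higher without WT 1 and 2 were higher without Top1mt-KO 3. The T cell median was -0.29 without WT 1 and -0.22 without Top1mt-KO 1. Of these lists 0 genes passed the test by limma, and their part in the marker levels was not tested.

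Prom1 varied with the summed level of the duct list and with that of the liver tumor list alike. Its r was 0.91 with the summed level of the 16 duct genes (0.88 within genotype), where that of Krt19 was 0.58 and that of Krt7 0.36, and 0.86 with the summed level of the liver tumor genes (0.84 within genotype). Without Top1mt-KO 2 and 3 these 2 values for Prom1 were -0.01 and 0.33, so both rest on those libraries. A sum of linear values follows its high and variable genes. Tspan8, 1 of the 16 duct genes, ran from 5.81 to 10.64 over the libraries, and Anxa4, the largest share, only from 10.53 to 10.96. The r of the sum thus does not speak for the 16 genes singly. The list of 10 liver tumor genes had 8 lower and 2 higher means in KO and a median log2 difference of -0.37, and 0 passed the test by limma. The median was -0.03 without Top1mt-KO 3, -0.62 without Top1mt-KO 1 and -0.71 without WT 3. Its largest differences were those of Afp, the fetal albumin relative (-1.79, SE 1.05), Gpc3, a heparan sulfate proteoglycan of liver cancer (-1.09, SE 0.998), Ly6d (-0.84, SE 0.76) and Cpe, a carboxypeptidase (-0.84, SE 0.78). The r with Prom1 was 0.91 for Golm1, a Golgi membrane protein (0.96 within genotype), 0.83 for Afp (0.76) and 0.82 for Gpc3 (0.79). The rest of the tumor list was mixed: 0.77 for Scd2, 0.75 for Ly6d and 0.57 for Cpe, but 0.29 for Igf2, 0.19 for Tff3, 0.05 for H19 and -0.08 for Cd44. Tspan8 had r = 0.90 with Prom1 (0.86 within genotype). Reln, listed here among stellate cell markers, had r = 0.97 (0.97 within genotype). In Golm1, Afp, Gpc3, Tspan8 and Reln Top1mt-KO 1 was the highest of the KO libraries, as for Prom1. Afp stood at 12.09, 8.06 and 9.13 in Top1mt-KO 1, 2 and 3, and Gpc3 at 12.17, 8.82 and 8.75. Without the 2 libraries farthest from the median of Prom1, Top1mt-KO 2 and 3, the r was 0.88 for Golm1 and 0.87 for Reln but 0.36 for Tspan8, 0.36 for Gpc3 and 0.01 for Afp, so for the last 3 the relation rests on those libraries.

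**Figure D5:**
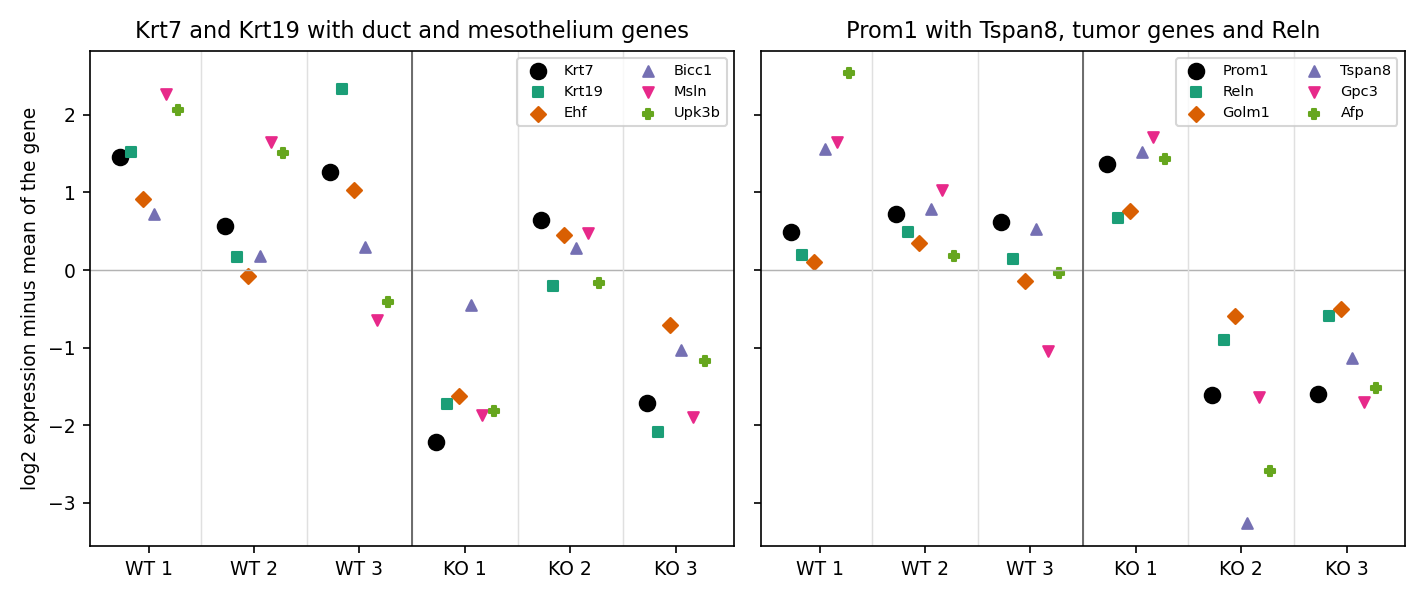
Log2 expression minus the mean of each gene (vertical axis) in each library (horizontal axis), for Krt7 and Krt19 with 2 duct genes and 2 mesothelium genes on the left and for Prom1 with Reln, Tspan8 and 3 tumor genes on the right. In WT 3 Krt19 is high while Msln and Upk3b are below their means, and in Top1mt-KO 1 all 6 genes of the right panel are above theirs.

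Sox9 is a target of Notch signalling in bile duct formation and of YAP in injured hepatocytes. Of 10 Notch genes 5 had a higher and 5 a lower mean in KO, 0 passed the test by limma, and the median log2 difference was 0.03, which ran from -0.10 without WT 2 to 0.09 without Top1mt-KO 2. The largest was that of the ligand Jag2 (0.93, SE 0.64), followed by those of the ligand Jag1 (-0.23, SE 0.23), the target Hey1 (0.21, SE 0.51) and the target Nrarp (-0.20, SE 0.33). Hes1, the target that Notch turns on in duct cells, had r = 0.83 with Sox9 (rho 0.94, 0.84 within genotype), and its values were 8.11, 7.94 and 8.74 in WT and 8.84, 7.28 and 8.64 in KO. The receptor Notch2 had r = 0.76 with Sox9 and Tff3, a secreted trefoil peptide, r = 0.74. The other Notch targets did not follow Sox9 in this way. Hey1 had r = 0.47 with it, and -0.13 without WT 2. Heyl was lowest in Top1mt-KO 1 and next lowest in WT 3, where Sox9 was highest and next highest. Nrarp was highest in WT 2, where Sox9 was lowest. The summed level of the 10 Notch genes, 60.4% of it Notch2, had r = 0.57 with Sox9. Of 11 Hippo genes 4 had a higher and 7 a lower mean in KO, with a median of -0.16 (-0.20 without WT 2 to -0.04 without WT 1) and 0 past the test, and the largest differences were those of Tead1 (-0.45, SE 0.39), Tead3 (0.36, SE 0.16), Tead2 (-0.34, SE 0.35) and the YAP target Cyr61 (-0.31, SE 0.39). Among the Hippo genes Tead4 had r = 0.77 with Sox9 (0.81 within genotype). Yap1 had r = 0.55 with Sox9, which became -0.06 without Top1mt-KO 1. The summed level of the 11 Hippo genes had r = 0.03 with Sox9. The summed mesothelium level had r = -0.80 with Sox9, the reverse of its relation to Krt7.

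Osteopontin acts through integrins and CD44. Of the 7 receptor genes 6 had a lower and 1 a higher mean in KO, 0 passed the test by limma, and the median log2 difference was -0.14. It was -0.02 with 4 lower means without WT 1, -0.08 without WT 3, -0.04 without Top1mt-KO 1, -0.23 without Top1mt-KO 2 and -0.41 without WT 2. The largest were those of Itgb3 (-0.36, SE 0.20), Itga9 (-0.27, SE 0.17), Itga4 (-0.16, SE 0.29) and Cd44 (-0.14, SE 0.32). Itgb5 followed Spp1 with r = 0.89 (0.89 within genotype), at 11.29, 10.91 and 10.68 in WT and 10.96, 10.87 and 11.04 in KO. Trem2, a receptor of lipid-laden macrophages that also make osteopontin, had r = 0.73 with Spp1, which became -0.31 without WT 1 and WT 3. The summed level of Krt8, Krt18, Krt20 and Krt80 ran opposite to Spp1, with r = -0.96 (rho -0.94, -0.98 within genotype). Krt18 gave the largest share of that sum, 60.0%. Krt20, at 2.04 to 6.74, and Krt80, at 1.55 to 3.67, added little to it. This r thus describes the sum of Krt8 and Krt18 and not each of them. Spp1 was highest in WT 1 and lowest in WT 3. Krt18 was lowest in WT 1 but highest in Top1mt-KO 1, and Krt8 was highest in WT 3 but lowest in WT 2.

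The genes whose pattern was most like each marker, by Pearson's r over the 6 libraries among 11665 genes with a range of at least 1, were mixed. For Krt19 they were Kif27 (0.99), Ighv5-4, Serpinb1a, 1700056N10Rik and Gm15869. For Krt7 they were Gm15234 (0.99), Plk3, Kif26b, Chsy1 and Fbxw17, and for Krt23 Epha4 (0.97), Gm22720, Asb11, Carmn and Anapc15. Epcam had Cldn4 (0.99), 5031425F14Rik, Tanc2, Ptger4 and Il18rap, and Cd24a had Gm13775 (0.995), Ildr1, Ttc39aos1, Gm15441 and Il18r1. For Prom1 they were 2200002D01Rik (0.99), Gm15261, Gm8317, Slc17a9 and Gm11870. For Sox9 they were Mir411 (0.98), Aurka, Hus1b, 4930461G14Rik and Gm16237, and for Spp1 Fcho1 (0.98), Gm15987, Pdzd7, Pcdhb4 and Fbxl16. Cldn4 is the only gene named here that is on the list of duct genes.

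A high r is common over so few libraries. The markers had between 11 (Spp1) and 50 (Prom1) genes at an r of 0.95 or more, while a gene of the same set had a median of 25, with 10 to 86 between the 5th and 95th percentiles. The markers thus lay inside the usual range, and no likeness is read as particular to them.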

How the data were processed

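Stranded RNA libraries of 3 WT and 3 Top1mt-KO liver tumors had been sequenced. The deposited values are log2 expression, 1 row per gene symbol, normalized between libraries by the authors with a transform that is not named. The submitters' processing notes name bcl2fastq 2.17, Trimmomatic 0.36, STAR 2.5.1, Subread, DESeq2 and GRCm38, while the methods name BWA and another build, so the aligner is uncertain. Whether counting used strand is not given in the sources used here. The values run from -2.24 to 22.0. Without counts the depth per library is unknown, no count model could be run, and the number of libraries (3 per group) limits the precision. The table has 3 unnamed columns with leftover cells, left unused here, and 0 other per-sample columns. It holds 26 symbols turned into dates and 5 repeated symbols, none of them a gene named here.

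Groups and replicate numbers came from the sample titles. The labels do not say which mouse each tumor came from, so an adjusted p measures the spread between these libraries only. Genotypes were compared in all 6 libraries with limma 3.58.1 in R 4.3.3 (lmFit, then eBayes with a trend), on the 22677 genes left after the lowest 25% by mean were dropped (at or below -0.89), adjusted by Benjamini-Hochberg over all of these, with an adjusted p under 0.05 as the threshold. Standard errors are limma's moderated ones. The procedure was tested on simulated data. Pearson's r and Spearman's rho were computed without p-values in Python 3.11.15. Summed levels of a list are the log2 of the sum of linear values.

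The markers, gene lists and motifs were chosen with earlier results of these data known. Named by rule were the 8 markers, Top1mt, at most the 4 genes of each list with the largest absolute difference, and the 5 genes most like each marker. Some genes that the rule names are not reported here. Other genes were named after their values were seen. Positions and promoter windows came from RefSeq on GRCm38.p6, and exons from GENCODE M21. The alternatives tried were limma without trend, quantile normalization, a median filter or none, a block for the replicate number, and each library left out. Leaving out both WT 2 and Top1mt-KO 1 was added after seeing the data.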

Additional observations from a re-analysis of the deposited data

How the results depend on the processing

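Over 12 alternatives, the signs of Krt19, Krt7, Krt23, Epcam, Cd24a and Prom1 were those given in the report. That of Sox9 was reversed without WT replicate 2 (-0.15), without Top1mt-KO replicate 1 (-0.21) and without both (-0.50), and that of Spp1 without WT replicate 3 (-0.29) and without Top1mt-KO replicate 3 (-0.21). With 1 library left out, Sox9 ran from -0.21 to 0.54 and Spp1 from -0.29 to 0.33. The count of markers with an adjusted p under 0.05 by limma was 0 to 1 with each library left out in turn, the 1 being Prom1 without Top1mt-KO replicate 1, and the count of all genes was 0 to 1 likewise. Without a filter on low values 4 genes passed, 0 of them markers. Libraries with the same replicate number did not deviate together (r = -0.12, -0.08 and 0.05). These values cannot exclude a pairing, since the labels do not say what the numbers stand for. With the replicate block 0 markers and 0 genes passed. The cause of these moves was not tested. At an unadjusted p under 0.05, 860 to 1356 genes passed with 1 library left out, beside 985 with all 6 libraries, and 590 passed with a filter at the median, under which fewer genes were tested. The depth is unknown, so what depth limits cannot be given.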
